A study of Homo sapiens with 8 samples.

Results

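Cadherins are calcium-dependent adhesion proteins, and 10 cadherin genes (CDH1, CDH2, CDH4, CDH5, CDH6, CDH7, CDH10, CDH11, CDH13 and CDH24) are described here in HEK293T cells that received vehicle (Control) or, for 48 h, 100 µM of DZNep. The genes were chosen by name, and their Ensembl identifiers were found in the table of counts through their GENCODE symbols, so that they make up 10 of the 57500 genes counted. HEK293T is a human embryonic kidney line with the large T antigen of SV40. DZNep (3-deazaneplanocin A) resembles adenosine and blocks AHCY, the enzyme that hydrolyzes S-adenosyl-l-homocysteine. RNA was sequenced from 8 libraries, 4 of each group, numbered as replicates 1 to 4 in both. All libraries come from 1 cell line, 1 dose and 1 time point, which limits what the groups can stand for. They are bulk samples, in which fewer cells of a type and less RNA per cell cannot be told apart.

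Classical cadherins span the membrane once and bind cadherins of a neighboring cell through their outermost repeats. On the inner side they bind p120 catenin, and they hold on to actin through β-catenin and α-catenin. Type I members include CDH1 (E-cadherin of epithelia), CDH2 (N-cadherin of neural and mesenchymal cells) and CDH4 (R-cadherin, named for the retina). The type II members here are CDH5 (VE-cadherin of endothelium), CDH6 (K-cadherin of the kidney), CDH7, CDH10, CDH11 (OB-cadherin of osteoblasts and other mesenchymal cells) and CDH24. CDH13 (T-cadherin) is atypical, since it lacks the transmembrane and cytoplasmic parts and is held by a GPI anchor. A change from CDH1 toward CDH2 is a known mark of epithelial-mesenchymal transition (EMT), in which factors of the SNAI, ZEB and TWIST families repress CDH1.

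Library totals ranged from 25043058 to 44902779 counts, and Control replicate 1 was the shallowest. Mitochondrial transcripts took 7.76%, 3.02%, 3.16% and 13.7% of the counts in Control replicates 1 to 4 and 7.04%, 4.25%, 4.44% and 10.1% in DZNep replicates 1 to 4. DZNep replicate 2 stood apart from its group. In it, 73 genes lay more than 4 times below the lowest other DZNep library, compared with 0 to 12 genes below the rest of the group in each of the other libraries. Control replicate 4 had 77 genes above 4 times the highest other Control library, and the other libraries had between 0 and 32. The markers of the kidney lineage were present in part. SIX2, GATA3, LHX1, EMX2, PAX2 and WT1 passed the expression filter, whereas PAX8 had at most 8 counts in any library.

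The cadherin genes did not move as 1 group. CDH1, CDH5 and CDH24 rose with DZNep and CDH4 fell, while CDH2, CDH7, CDH10, CDH11 and CDH13 did not pass the thresholds and CDH6 had too few counts to be tested. Genes were called at an adjusted p-value under 0.05 with a log2 fold change over 1 in either direction, in edgeR's quasi-likelihood test across all 19171 genes that passed the expression filter. Of these, 10.6% were higher and 13.5% were lower with DZNep, together 24.2%, and on the p-value alone 19.1% were higher and 21.8% lower. Among the 9 cadherins tested, 3 were higher and 1 was lower, and their median log2 fold change was 0.24, compared with -0.03 over all genes tested. CDH5 entered the test only through its DZNep libraries, since 0 of 4 Control and 4 of 4 DZNep libraries reached the filter's cutoff of 0.247 CPM, a count scaled to the library total. A gene of this kind had to differ to be tested at all, so these counts are a description and carry no test for the group. The test blocked on replicate number called the same 4 members.

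**Figure D1:**
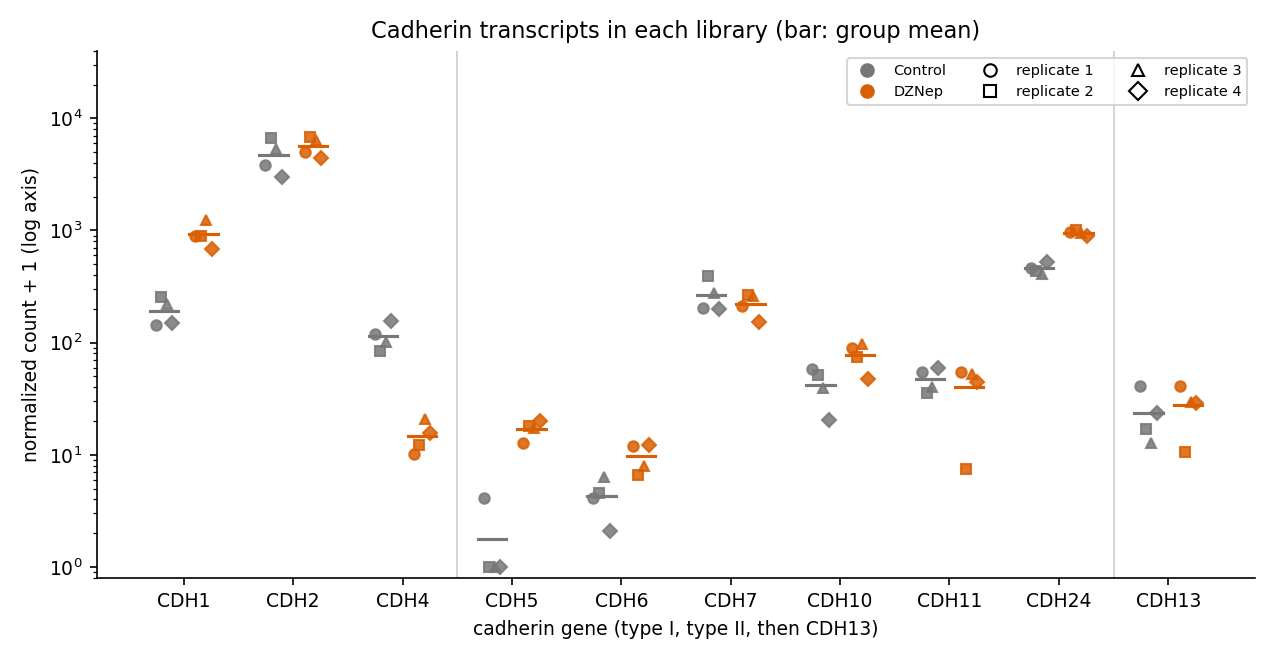
Normalized counts of the 10 cadherin genes in each of the 8 libraries, plotted as the normalized count plus 1 on a log axis (gray, Control; orange, DZNep; marker shape, replicate number; bar, group mean). CDH1, CDH5, CDH6 and CDH24 show no overlap between the groups with DZNep higher, CDH4 shows none with DZNep lower, and DZNep replicate 2 is the lowest point of CDH11 and CDH13. Of all genes tested, 19.5% show no overlap with DZNep higher and 19.4% none with DZNep lower.

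Among the type I cadherins, CDH1 (ENSG00000039068, chromosome 16 of GRCh38 from 68737292 to 68835537, plus strand) was the member that rose most among those well detected in both groups. Its normalized counts, which are counts divided by the size factor of the library, were 142, 254, 221 and 148 in Control replicates 1 to 4 and 896, 895, 1232 and 686 in DZNep replicates 1 to 4. Every DZNep library thus lay above every Control library, an order that 19.5% of all genes tested showed by any margin. Mean CDH1 was 191 ± 55.3 normalized counts in the Control and 927 ± 226 with DZNep (SD, n = 4). The test gave a log2 fold change of 2.24 ± 0.25 (standard error, SE), adjusted p = 0.000105, which is a 4.74-fold increase. Pair by pair, the log2 ratios of CDH1 were 2.65, 1.81, 2.47 and 2.20.

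CDH2 (ENSG00000170558, chromosome 18 from 27932879 to 28177946, minus strand) had the highest level of the 10 genes in both groups. Its normalized counts were 3848, 6709, 5348 and 2995 in the Control and 5052, 6774, 6340 and 4381 in the DZNep libraries, so that the groups overlapped. For CDH2 the log2 fold change was 0.23 ± 0.25 (SE), with a 95% interval of -0.33 to 0.79 and adjusted p = 0.503. CDH2 was higher with DZNep in 4 of 4 pairs of the same number, by log2 ratios of 0.39, 0.01, 0.25 and 0.55. Blocked on replicate number, the adjusted p-value of CDH2 was 0.0612.

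CDH4 (ENSG00000179242, chromosome 20 from 61252261 to 61940617, plus strand) moved the other way. It had 119, 83.9, 100 and 155 normalized counts in the Control libraries and 9.07, 11.3, 19.9 and 14.6 in the DZNep libraries. The highest DZNep library was thus well below the lowest Control library, an order that 19.4% of all genes tested showed. Mean CDH4 was 114 ± 30.4 normalized counts in the Control and 13.7 ± 4.70 with DZNep (SD, n = 4), 8.44-fold lower. Its log2 fold change was -3.08 ± 0.32 (SE), adjusted p = 7.73e-05. CDH4 was lower in all 4 pairs, by log2 ratios between -3.57 and -2.28. DZNep libraries held between 10 and 23 counts of CDH4, close to the filter, which 3 of 4 of them reached.

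The balance of CDH1 and CDH2 was compared within each library, where scaling between libraries plays no part. Levels per length were computed as TPM, which scales counts by exon length and then to a common library sum, over the exons of each gene. CDH2 exceeded CDH1 by a TPM ratio of 19.2, 18.7, 17.1 and 14.3 in Control replicates 1 to 4. In DZNep replicates 1 to 4 the ratio was 3.99, 5.36, 3.64 and 4.52. CDH2 therefore remained the more abundant transcript in every library, at a ratio that was lower in all 4 DZNep than in all 4 Control libraries. CDH1 made up between 3.60% and 4.47% of the summed TPM of the 10 genes in the Control and between 11.8% and 16.2% in the DZNep libraries, and CDH2 between 62.3% and 78.4% and between 56.5% and 63.0%.

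**Figure D2:**
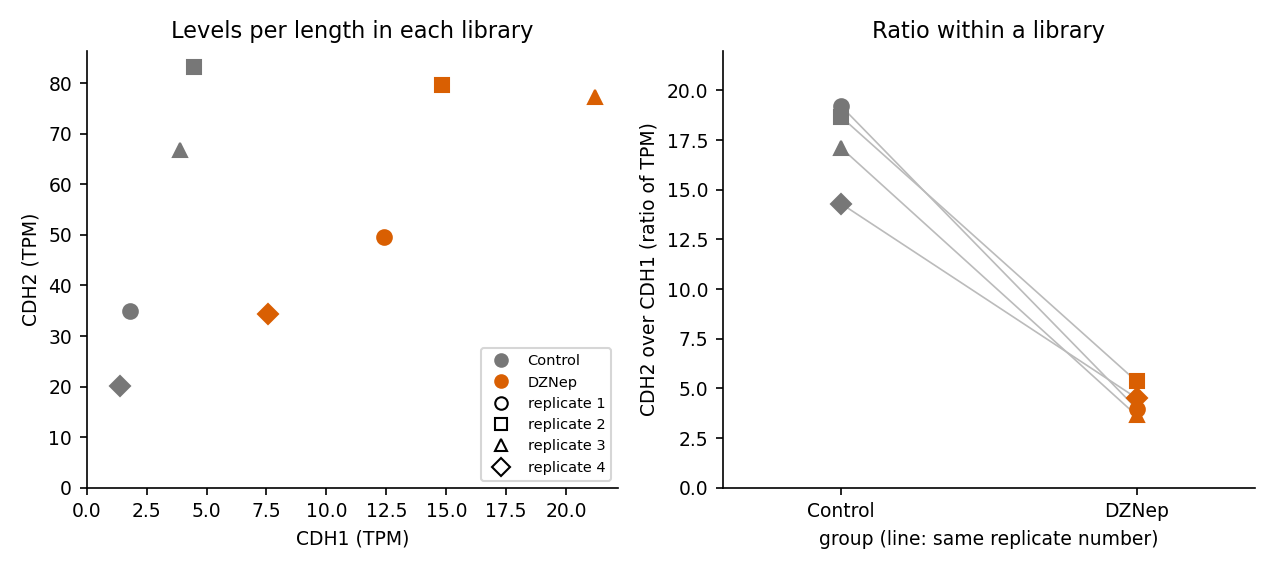
Levels of CDH1 and CDH2 in TPM in each library (left) and the ratio of CDH2 to CDH1 within a library (right; lines join libraries of the same replicate number). The ratio lies between 14.3 and 19.2 in the Control and between 3.64 and 5.36 in the DZNep libraries, and the CDH2 levels of the groups overlap.

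RefSeq promoter windows (GRCh38.p14, 250 bases before to 50 after a start) were matched for 4 of the 10 genes, namely CDH2, CDH4, CDH7 and CDH10, and gave 7 windows. CDH1, CDH5, CDH6, CDH11, CDH13 and CDH24 had no entry. The windows of CDH4, the member that fell, and of CDH10 are shown with a window of CDH2, the most abundant member. Capitals mark the E-box CAGGTG or its reverse complement CACCTG, the letters that SNAI and ZEB factors are known to bind. Each is written 5′ to 3′ on the strand of its gene.
CDH4, chr20:61499171-61499470, plus strand: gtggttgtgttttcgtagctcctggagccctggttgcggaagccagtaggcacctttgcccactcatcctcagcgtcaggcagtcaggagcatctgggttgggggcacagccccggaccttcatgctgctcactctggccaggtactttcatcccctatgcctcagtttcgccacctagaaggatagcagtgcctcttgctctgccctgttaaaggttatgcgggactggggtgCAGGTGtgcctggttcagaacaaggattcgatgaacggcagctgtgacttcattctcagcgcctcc
CDH4, chr20:61599511-61599810, plus strand: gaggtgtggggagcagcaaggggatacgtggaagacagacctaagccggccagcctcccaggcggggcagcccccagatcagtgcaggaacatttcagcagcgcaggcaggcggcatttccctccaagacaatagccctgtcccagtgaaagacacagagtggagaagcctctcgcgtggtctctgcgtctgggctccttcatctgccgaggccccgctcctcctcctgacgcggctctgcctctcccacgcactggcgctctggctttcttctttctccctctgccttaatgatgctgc
CDH10, chr5:24644929-24645228, minus strand: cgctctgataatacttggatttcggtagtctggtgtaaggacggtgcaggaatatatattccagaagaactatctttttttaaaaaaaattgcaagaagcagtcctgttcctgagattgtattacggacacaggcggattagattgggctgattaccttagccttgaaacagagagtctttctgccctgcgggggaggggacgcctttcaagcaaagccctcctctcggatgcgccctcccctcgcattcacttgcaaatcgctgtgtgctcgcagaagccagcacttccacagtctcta
CDH2, chr18:28177081-28177380, minus strand: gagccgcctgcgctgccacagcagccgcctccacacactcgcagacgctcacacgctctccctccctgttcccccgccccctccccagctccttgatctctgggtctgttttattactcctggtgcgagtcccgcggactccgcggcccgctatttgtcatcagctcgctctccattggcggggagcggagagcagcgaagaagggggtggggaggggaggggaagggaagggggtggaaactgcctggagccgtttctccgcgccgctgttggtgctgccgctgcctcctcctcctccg
Both CDH4 windows lie inside the gene as GENCODE annotates it, and the first holds an E-box from base 235. It was the only one of the 7 windows with this motif, which 20.6% of all 35116 windows of the same length hold. The CDH4 windows had 9 and 14 CpG dinucleotides, that of CDH10 had 12 and that of CDH2 shown above had 23, beside a median of 14 over all windows. The second CDH7 window (chr18:65750762-65751061) was the richest in CpG, with 41, and 93.3% of all windows had fewer. The other CDH7 window had 7, and the CDH2 window not shown (chr18:28036592-28036891) had 4, the fewest of the 7 windows. A match or its absence in these 300 bases is a description of the letters only, and no binding or methylation was measured.

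Of the type II cadherins, CDH24 and CDH5 rose. CDH24 (ENSG00000139880, chromosome 14 from 23047062 to 23057538, minus strand), a widely expressed member, had 464, 438, 408 and 528 normalized counts in the Control libraries and 959, 1017, 940 and 884 in the DZNep libraries. Every DZNep library lay above every Control library, an order that 19.5% of all genes tested showed by any margin. The log2 fold change of CDH24 was 1.02 ± 0.14 (SE), adjusted p = 0.000308, so that CDH24 passed the p-value threshold widely and the fold change threshold by little. Without Control replicate 2, Control replicate 3 or DZNep replicate 2, the log2 fold change was 1.00, 0.96 and 0.99, short of that threshold, while the adjusted p-value was at most 0.00170.

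CDH5 (ENSG00000179776, chromosome 16 from 66366690 to 66404784, plus strand) was almost absent from the Control cells. It had 2, 0, 0 and 0 counts in Control replicates 1 to 4 and 13, 21, 19 and 17 counts in DZNep replicates 1 to 4. Summed over the libraries and scaled by their size factors, 70 counts with DZNep against 2 in the Control gave a ratio of 30.4, with an exact 95% interval of 8.11 to 256 that covers counting error only. Since CDH5 had to be high with DZNep to enter the main test, its place among the genes called there adds nothing to these counts. Even after the increase, the level of CDH5 was low, with 0.237 ± 0.0583 TPM (SD, n = 4) in the DZNep libraries, compared with 14.0 ± 5.66 for CDH1 and 60.13 ± 21.96 for CDH2.

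CDH6 (ENSG00000113361, chromosome 5 from 31193686 to 31329146, plus strand) was near the limit of detection. It had 2, 4, 6 and 1 counts in the Control and 12, 7, 8 and 10 counts in the DZNep libraries, and was left out by the expression filter. After scaling, all 4 DZNep libraries, at 5.64 to 11.3 normalized counts, lay above all 4 Control libraries, at 1.07 to 5.38 (p = 0.0286 in a two-sided exact permutation test, which cannot give a smaller p here). The margin between the groups was 5.38 against 5.64, and 19.5% of the genes tested had this order. The ratio of summed counts (37 with DZNep against 13 in the Control), scaled by the size factors, was 2.47, with an exact 95% interval of 1.28 to 5.07. When every gene with at least 1 read was tested, CDH6 had a log2 fold change of 1.31 ± 0.65 (SE), adjusted p = 0.173, and DESeq2 gave an adjusted p of 0.146.

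CDH10 (ENSG00000040731, chromosome 5 from 24487100 to 24644978, minus strand), a cadherin of the nervous system, was higher in all 4 pairs without passing the threshold. Its normalized counts were 57.0, 50, 38.5 and 19.3 in the Control and 88.0, 74.1, 96.7 and 46.1 in the DZNep libraries. The groups overlapped only through replicate 4, which had the lowest value of each group. The log2 fold change of CDH10 was 0.87 ± 0.36 (SE), adjusted p = 0.0757. Blocked on replicate number, it was 0.90, adjusted p = 0.00682, which met the p-value threshold but not the fold change threshold. Without DZNep replicate 4, CDH10 met both (1.05, adjusted p = 0.038).

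CDH7 (ENSG00000081138, chromosome 18 from 65750252 to 65890337, plus strand) had 202, 393, 274 and 197 normalized counts in the Control and 211, 264, 259 and 151 in the DZNep libraries. The groups overlapped, and CDH7 was lower in 3 of 4 pairs. Its log2 fold change was -0.29, with a 95% interval of -0.89 to 0.30 and an adjusted p-value of 0.409. In both groups the order of the libraries followed that of CDH2, with replicates 2 and 3 high and replicates 1 and 4 low.

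CDH11 (ENSG00000140937, chromosome 16 from 64943753 to 65126112, minus strand) had 54.0, 34.8, 39.4 and 58.0 normalized counts in the Control libraries. In DZNep replicates 1, 3 and 4 it had 53.5, 51.8 and 43.9, within the range of the Control, and in DZNep replicate 2 it had 6.44. Over all libraries the log2 fold change of CDH11 was -0.28 ± 0.51 (SE), adjusted p = 0.692, and without DZNep replicate 2 it was 0.09, with an adjusted p-value of 0.844. The atypical CDH13 (ENSG00000140945, chromosome 16 from 82626965 to 83800640, plus strand) had the same low library. Its normalized counts were 40.1, 16.1, 11.7 and 22.6 in the Control and 39.9, 9.66, 28.5 and 28.1 in the DZNep libraries, with a log2 fold change of 0.24, a 95% interval of -0.86 to 1.33 and an adjusted p-value of 0.729. Without DZNep replicate 2, the log2 fold change of CDH13 was 0.53 and its adjusted p-value 0.399.

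**Figure D3:**
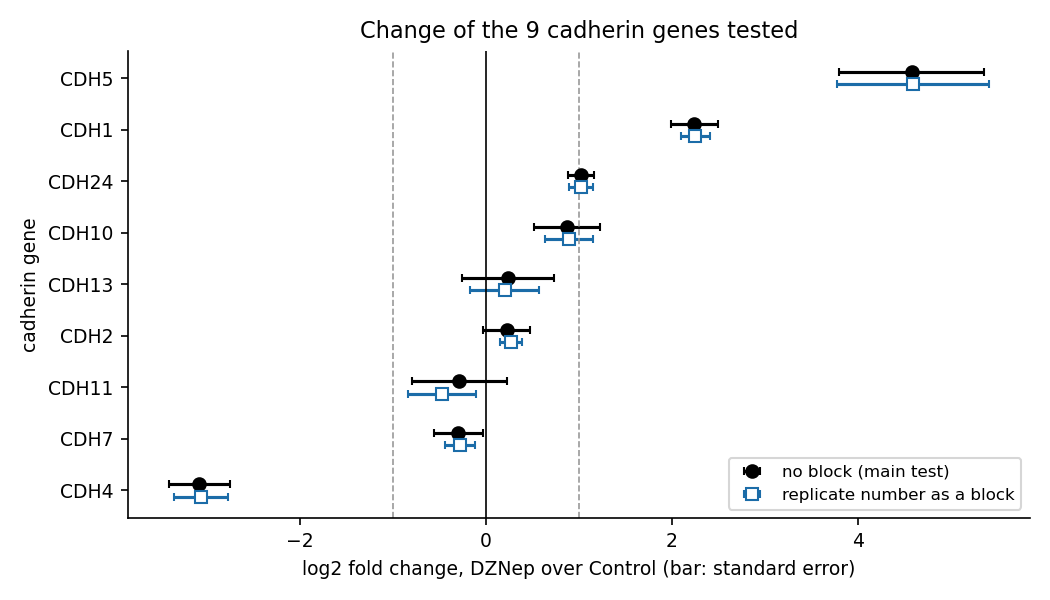
Log2 fold change (DZNep over Control) of the 9 cadherin genes tested, with bars for the standard error, in the main test (black) and in the test blocked on replicate number (blue). Dashed lines mark log2 fold changes of -1 and 1. CDH5, CDH1 and CDH24 lie above the upper line, CDH4 at -3.08 lies below the lower line, and the values of the other 5 lie between.

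The low values of CDH11 and CDH13 in DZNep replicate 2 came with low values of mesenchymal genes. Of 13 mesenchymal markers, 12 were lower in DZNep replicate 2 than in each of the other 3 DZNep libraries, and LOX was the exception. Some margins were small, as for FN1 (3677 compared with 3773 to 5783) and VIM (23590 compared with 25410 to 30850). Among the cadherins, CDH6, at 5.64 compared with 6.91 to 11.3, was also lowest there. The share of all genes that were lowest in this library was not computed, so the count of 12 is a description. COL1A2, a chain of type I collagen, had 15.3 normalized counts there, compared with 1072 to 1647 in the other DZNep and 898 to 2167 in the Control libraries. POSTN, which encodes the matrix protein periostin, had 64.4, compared with 561 to 1007 in the other DZNep libraries. Summed over the list, DZNep libraries ranged from 38870 to 56270 and Control libraries from 36760 to 52900 normalized counts, of which VIM made up a large part. Of 12 endothelial markers, 2 were below the other DZNep libraries, among them PECAM1 (45.9 compared with 145 to 228), and 2 were above. Of 12 leukocyte markers, 4 were below, among them CD14 (21.8 compared with 60.8 to 154) and CSF1R (47.5 compared with 118 to 212), and 1 was above, LYZ (450 compared with 21.6 to 24.8). The part of these differences in the values of CDH11 and CDH13 was not tested. CDH1, CDH4, CDH5 and CDH24 in DZNep replicate 2 differed from the mean of the other DZNep libraries by log2 ratios of -0.07, -0.34, 0.09 and 0.13.

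**Figure D4:**
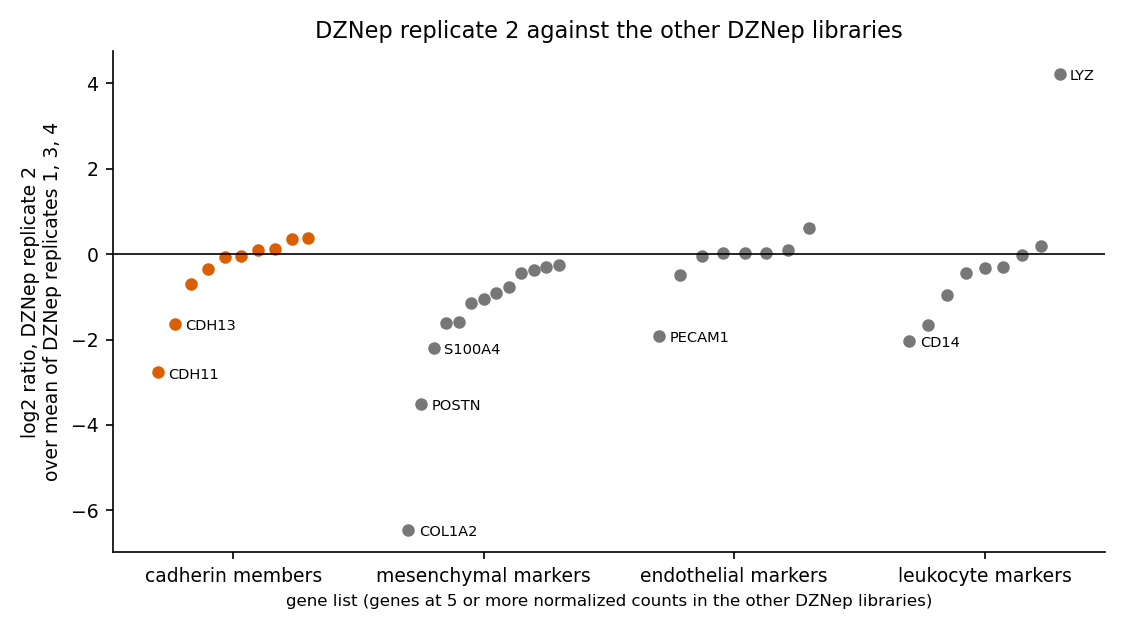
Log2 ratio of DZNep replicate 2 to the mean of DZNep replicates 1, 3 and 4 (a count of 1 added to both), 1 point for each gene of 4 lists with at least 5 normalized counts in those 3 libraries. CDH11 at -2.77 and CDH13 at -1.64 are the lowest cadherins, COL1A2 at -6.45 and POSTN at -3.50 are the lowest mesenchymal markers, and LYZ lies at 4.23.

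Ordered by TPM in the Control, the genes ran from CDH2 (51.3 ± 28.9) through CDH24 (10.5 ± 1.97), CDH1 (2.90 ± 1.51), CDH7 (1.69 ± 0.953), CDH4 (1.26 ± 0.117) and CDH10 (1.03 ± 0.500) to CDH11 (0.292 ± 0.0320), CDH13 (0.167 ± 0.0794), CDH6 (0.0253 ± 0.0175) and CDH5 (0.00998 ± 0.0200; SD, n = 4 for each). CDH2, CDH24 and CDH1 did not overlap with each other. Below them, each gene overlapped with its neighbor in this order, CDH1 with CDH7 included, except CDH13 and CDH6. With DZNep, CDH24 (22.7 ± 5.23 TPM) and CDH1 (14.0 ± 5.66 TPM) overlapped, and CDH10 (1.92 ± 0.793 TPM) and CDH7 (1.404 ± 0.5558 TPM) came next. CDH4 dropped to 0.165 ± 0.0769 TPM, behind CDH11, CDH5 and CDH13 (0.255 ± 0.157, 0.237 ± 0.0583 and 0.209 ± 0.0981 TPM), with which it overlapped. CDH4 thus went from the fifth to the ninth place and CDH5 from the tenth to the seventh.

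Some of the genes varied together between replicates within a group. Over the 8 deviations from the group means, on the scale of log2(normalized count + 1), CDH2 and CDH7 correlated with r = 0.94, CDH1 and CDH7 with 0.90 and CDH1 and CDH2 with 0.85. CDH11 and CDH13 correlated with 0.83, and for CDH6 and CDH24 r was -0.92, with few counts behind CDH6. The points share their libraries, and the same libraries differ in the share of mitochondrial transcripts, which was lowest in replicates 2 and 3 of each group, where CDH2 was highest. Its part in these correlations was not tested. Among 12947 genes with a mean of at least 100 normalized counts, the deviations most like those of CDH2 were those of POLR2A, NBEA and ANTXR1 (r = 0.999, 0.996 and 0.996), and those most like CDH1 were KBTBD11, ENPP1 and RIMS3 (r = 0.990, 0.989 and 0.987). Over the 8 libraries themselves, CDH1 was most like VARS2, PDK4 and RAD21 (r = 0.996, 0.994 and 0.994) and CDH2 most like TNPO1, SLC39A14 and ABHD2 (r = 0.993, 0.993 and 0.992).

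CDH1, CDH5, CDH11 and CDH13 lie on chromosome 16, CDH2 and CDH7 on chromosome 18, and CDH6 and CDH10 on chromosome 5. Of the members on chromosome 16, CDH1 and CDH5 rose, while CDH11, the nearest tested coding gene on the lower side of CDH5, 1240.6 kb away, did not pass the threshold. CDH1 has the placental cadherin CDH3 9.8 kb to its lower side, which rose from 93.4 to 218 normalized counts on average (log2 fold change 1.20, adjusted p = 0.00616). On its other side, 8 kb away, TANGO6 fell (log2 fold change -1.14, adjusted p = 0.00475). CDH24 lies between PSMB5 and ACIN1, which had log2 fold changes of 0.45 and 0.53, under the fold change threshold, with adjusted p-values of 0.031 and 0.0149. For the 10 genes, the nearest tested coding genes on both sides came to 20 places and 19 distinct genes, of which 4 places were called higher and 3 lower, where 24.2% of all genes tested were called in either direction. One of the higher places is CDH5 itself, as the neighbor of CDH11. PRDM9, 959 kb from CDH10, rose with a log2 fold change of 2.67. HSBP1 overlaps CDH13 on the same strand and had between 5954 and 8705 normalized counts, far more than CDH13. Whether reads of HSBP1 enter the counts of CDH13 was not tested. FTLP14, a pseudogene within CDH1, had 0.893 to 1.79 normalized counts in the Control and 8.86 to 15.4 in the DZNep libraries.

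The other cadherins of the superfamily were described from lists by structure. The counts of these and the following lists stand beside 10.6% higher and 13.5% lower among all genes tested. Of 13 further CDH genes, 9 were tested, of which CDH3 and CDH15 (muscle cadherin, log2 fold change 1.56) were higher and CDH23 (-1.81, a cadherin of hair-cell tip links), CDH22 (-1.45) and CDH26 (-1.06) were lower. The median log2 fold change was -0.45. The count of lower genes was 1 without Control replicate 3, DZNep replicate 1 or DZNep replicate 4, and 4 without Control replicate 4. The count of higher genes was 1 without DZNep replicate 3. Desmosomal cadherins, which join cells to keratin filaments, had 6 tested genes, with DSG1, DSC1 and DSG3 called higher and 0 called lower by edgeR (0 at an unadjusted p under 0.05, and 0 by DESeq2 and by limma). DSG1 and DSG3, like CDH5, reached the cutoff of the filter in 0 Control libraries and entered the test only through DZNep, and with at least 10 reads in every library 1 gene of the list was called. DSG1 had 0, 0, 2 and 0 counts in the Control and 50, 82, 71 and 32 counts in the DZNep libraries. DSC1 rose, with 30.8 ± 10.6 normalized counts in the Control and 289 ± 137 with DZNep (SD, n = 4). DSC2, DSC3 and DSG2 were not called, with log2 fold changes of 0.88, 0.17 and -0.30.

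Among the 9 FAT, Dachsous and flamingo cadherins, FAT4 rose with a log2 fold change of 2.20, and DCHS1 (-1.50), which encodes its binding partner, and CELSR1 (-1.21) fell. The groups overlapped for FAT4, with 276 to 800 normalized counts in the Control and 782 to 3945 in the DZNep libraries. Of 7 calsyntenins and cadherin-related genes tested, 0 were called higher by edgeR (2 at an unadjusted p under 0.05, 0 by DESeq2 and by limma) and CDHR2 (-1.54), CDHR1 (-1.41) and RET (-1.33) were lower, while CLSTN1 and CLSTN3 had log2 fold changes of 0.87 and 0.72 with adjusted p-values of 0.00347 and 0.00763. Of 12 non-clustered protocadherins, 5 were higher, with PCDH18 (1.62), PCDH7 (1.48), PCDH20 (1.47) and PCDH12 (1.38) having the highest values, and PCDH1 (-1.08) was lower. The count of lower genes was 0 without Control replicate 2 or DZNep replicate 4 and 2 without DZNep replicate 3. Blocked on replicate number, PCDH11X (-1.30, adjusted p = 0.0206) was also lower. PCDH7 had 3035 ± 593 normalized counts in the Control and 8655 ± 3329 with DZNep (SD, n = 4).

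**Figure D5:**
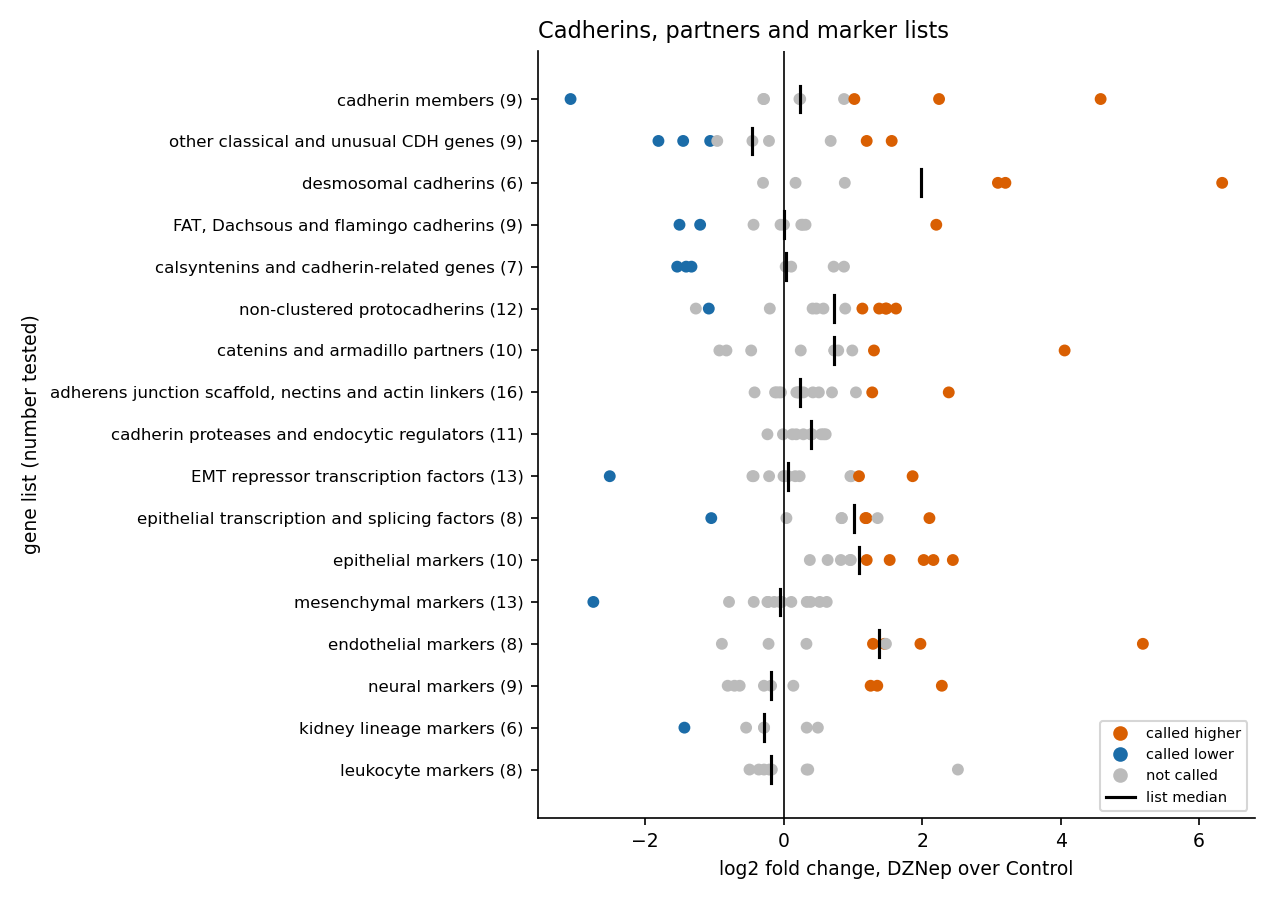
Log2 fold change (DZNep over Control) of every tested gene of the cadherin members and of 16 lists of related cadherins, partners and markers, 1 point for each gene (orange, called higher; blue, called lower; gray, not called; black bar, list median). The cadherin members have points from -3.08 to 4.58 around a median of 0.24, and CDH5, DSG1, DSG3, CTNNA2, ESRP1, VWF, CLDN5 and TEK are points that entered the test only through their DZNep libraries.

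Of the catenins and their armadillo partners, 10 of 13 genes were tested. JUP (γ-catenin, shared by adherens junctions and desmosomes) rose, with 3298 ± 113 normalized counts in the Control and 8296 ± 888 with DZNep (SD, n = 4, log2 fold change 1.30, adjusted p = 7.75e-05). CTNNA2, the neural α-catenin, was also called, with 0 or 1 counts in each Control library and 11 to 31 counts in each DZNep library, through which alone it entered the test. CTNNB1 (β-catenin) had a log2 fold change of 0.99 (adjusted p = 0.04), just short of the fold change threshold, and was called when blocked on replicate number (1.11, adjusted p-value 2.94e-05). CTNND1 (p120 catenin) had a log2 fold change of 0.73 (adjusted p = 0.0491), and CTNNA1 (α-catenin) 0.25 with 0.316. PKP2 (0.73, adjusted p = 0.0248) also rose on the p-value alone. In the other direction, ARVCF (-0.93), PKP4 (-0.83) and CTNNAL1 (-0.47) passed the p-value threshold alone. Of 16 scaffold, nectin and actin linker genes, TJP3 (2.38) and PLEKHA7 (1.28) were higher and 0 were lower by edgeR (1 at an unadjusted p under 0.05, 0 by DESeq2 and by limma). Of 11 proteases and endocytic regulators, 0 were called in either direction by edgeR, DESeq2 or limma, with 4 higher and 0 lower at an adjusted and at an unadjusted p under 0.05.

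Of 13 EMT transcription factors, among them known repressors of CDH1, SNAI1 and ZEB2 were higher and TWIST2 was lower. SNAI1 rose, with 49.9 ± 23.1 normalized counts in the Control and 184 ± 48.5 with DZNep (SD, n = 4, log2 fold change 1.86, adjusted p = 0.00228), and ZEB2 from 1283 ± 342 to 2778 ± 661 (log2 fold change 1.09, adjusted p = 0.00523). TWIST2 fell from 254 ± 39.6 to 45.3 ± 3.39 (log2 fold change -2.51, adjusted p = 1.59e-05). SNAI2, ZEB1 and TWIST1 had log2 fold changes of 0.02, 0.17 and 0.07 with adjusted p-values of 0.953, 0.654 and 0.859. SNAI3 (0.98, adjusted p = 0.00423) and KLF8 (0.96, adjusted p = 0.0277) rose on the p-value alone, and TCF3 (-0.43, adjusted p = 0.0259) fell on it. The list as a whole had a median of 0.07. The part of these factors in the values of CDH1 was not tested. Of 8 epithelial transcription and splicing factors tested, ESRP1 (2.10), GRHL3 (1.20) and GRHL1 (1.18) were higher and ESRP2 (-1.04) was lower. ESRP1 entered the test only through its DZNep libraries. The count of lower genes was 0 when Control replicate 1 or 4 or DZNep replicate 1, 2 or 4 was left out. GRHL2, known as an activator of CDH1, had at most 5 counts in any library.

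Markers of cell types were read alongside the cadherins, again beside 10.6% higher and 13.5% lower among all genes tested. Of 10 epithelial markers tested, 5 were higher and 0 were lower by edgeR (0 at an unadjusted p under 0.05, and 0 by DESeq2 and by limma), with a median log2 fold change of 1.08. The count of higher genes was 3 without DZNep replicate 3 and 8 without Control replicate 4. KRT8 rose, with 361 ± 138 normalized counts in the Control and 2001 ± 401 with DZNep (SD, n = 4), and CLDN7 (2.16), MARVELD3 (2.02) and RAB25 (1.53) followed. The higher markers include CDH3 (1.20), which was also counted among the further CDH genes. EPCAM had a log2 fold change of 0.96 (adjusted p = 0.0237). CRB3, CLDN3 and KRT19, of the same list, did not pass the expression filter. CRB3 was lower, with 10.7 to 17.0 normalized counts in the Control and 0 to 8.86 with DZNep. CLDN3 had a mean of 2.85 in the Control and 8.255 with DZNep, and KRT19 had 74.1 in DZNep replicate 2 and at most 2.15 elsewhere. Of 13 mesenchymal markers, 0 were higher by edgeR (2 at an unadjusted p under 0.05, 0 by DESeq2 and by limma) and ACTA2 (-2.75) was lower. SPARC passed the p-value threshold alone, with a log2 fold change of 0.52. Of 8 endothelial markers tested, VWF (5.19), CLDN5 (1.98), TEK (1.46) and ESAM (1.29) were higher. VWF, CLDN5 and TEK entered the test only through their DZNep libraries, and with at least 10 reads in every library 1 gene of the list was called. VWF rose, with 2.81 ± 1.26 normalized counts in the Control and 103 ± 20.8 with DZNep (SD, n = 4), while other endothelial genes, ERG, EMCN, ROBO4 and TIE1, had at most 9 counts in any library. FLT1 had a log2 fold change of -0.89 (adjusted p = 0.0022). Summed over the endothelial list, the Control libraries ranged from 2168 to 3296 and the DZNep libraries from 2436 to 3645 normalized counts. EGFL7 and FLT1 made up most of these sums, which therefore say little of the other genes. Of 9 neural markers tested, MAP2 (2.28), TUBB3 (1.35) and ENO2 (1.26) were higher. In the other direction, NES (-0.808, adjusted p = 0.0136) and INA (-0.635, adjusted p = 0.027) passed the p-value threshold alone, and the median of the neural list was -0.18. Of 6 kidney lineage markers LHX1 (-1.43) was lower, and of 8 leukocyte markers 0 were called by edgeR in either direction (1 higher at an unadjusted p under 0.05, 1 higher by DESeq2 and 0 by limma). The part of such changes in the values of CDH1 and CDH5 was not tested.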

How the data were processed

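RNA was measured in 8 libraries of HEK293T cells, 4 per group, grouped by the treatment and replicate number in the sample labels. Reads were paired, of 150 bp. The authors used Trimmomatic 0.36 for trimming, STAR 2.5.2b for mapping to GRCh38 and featureCounts (Subread 1.5.2) for unique reads in exons. They deposited these counts for 57500 genes, and a second deposited table holds a signal, normalized counts, for 19118 genes. Each of its values was checked to be a count over its library's size factor (largest difference 2.6e-09), which was used for all genes here. The annotation release and strand setting are not given in the sources used here, so overlapping and antisense genes are uncertain. The submitters also name DESeq2.

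The software was edgeR 4.0.16, limma 3.58.1 and DESeq2 1.42.0 under R 4.3.3. Quasi-likelihood tests of edgeR, after TMM normalization, covered the 19171 genes kept by filterByExpr (0.247 CPM in at least 4 libraries), with Benjamini-Hochberg adjustment over these genes. Called genes pass 0.05 on the adjusted p-value and 1 on the size of the log2 fold change. Intervals of 95% on log2 fold changes use its standard errors and degrees of freedom. On simulated counts, 171 of 200 genes changed by a log2 fold of 2 were recovered, with 9 false calls among 18762 genes. The simulated libraries were independent and only 200 genes changed, whereas 24.2% of genes were called in the data. These rates therefore do not carry over to the comparison here. TPM was computed from the counts and the exon lengths of GENCODE release 44, which held 56410 of the identifiers and 99.9% of the counts. Pairs of replicates differed by more than sampling noise (chi-square per degree of freedom at least 26.9). Intervals on counts cover counting error only. The study calls the replicates biological, and the sources used here do not say whether they were separate cultures, so p-values measure the spread between these libraries.

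Both groups share replicate numbers. Same-numbered libraries had deviations from their group means that correlated by 0.24, 0.64, 0.60 and 0.81 over 13624 genes, each over 0.1. Ratios within numbers are therefore given as pairs, and a block on the number was fitted, while the main test has no block. The share of all genes that moved in the same direction in every pair was not computed. Correlations between libraries of different numbers were not computed, so these values do not show that the numbers are pairs. The study's methods use no such block, and the block was an alternative here.

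The members and the gene lists, written from general knowledge, were chosen with earlier results of these data known. Named genes are all members, up to 4 called genes per list with the largest absolute log2 fold change, the nearest tested coding genes, and the 3 genes most correlated with CDH1 and CDH2. Any other gene was named with its values known. Promoter sequences come from RefSeq (GRCh38.p14). The alternatives were DESeq2, the block, other filters and normalizations, each library left out, limma on log2(normalized count + 1), and other fold thresholds.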

Additional observations from a re-analysis of the deposited data

Results flagged for a closer look

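In groups of 4 libraries, a value was examined when its gap to the nearest other library, divided by the range of the group, exceeded Dixon's 95% critical value (by which chance marks about 1 in 20 groups). Of 154 groups of the genes examined, 5 exceeded it, 1 of them among the 20 groups of the cadherin members. CDH5 had 3.08 normalized counts in Control replicate 1, from 2 counts, and 0 in the other Control libraries. DSG1 had 1.79 normalized counts in Control replicate 3 and 0 in the others, again from 2 counts. CDH26 had 23.3 normalized counts in Control replicate 3, compared with 17.0 to 17.2 in the others. COL1A1 had 2365 normalized counts in DZNep replicate 2, compared with 4293 to 4682 in the other DZNep libraries. LYZ had 450 normalized counts in DZNep replicate 2, compared with 21.6 to 24.8. The value of CDH11 in DZNep replicate 2, 6.44 normalized counts, gave a ratio of 0.795 and did not exceed the limit.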

How the results depend on the processing

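The calls of CDH1 and CDH4 kept their direction and their side of both thresholds under every alternative. Their log2 fold changes ran from 2.08 to 2.41 for CDH1 and from -3.31 to -2.90 for CDH4. CDH5 was called wherever it was tested, with log2 fold changes from 3.57 to 7.11. It entered the main test only through its DZNep libraries, so calls behind that filter add nothing to its counts. Without that filter, CDH5 was called by DESeq2 (4.90, adjusted p = 9.96e-05). It was also called by edgeR on every gene with at least 1 read (4.58, adjusted p = 0.000378). The value of 7.11 came without Control replicate 1, when every remaining Control count of CDH5 was 0. With at least 10 reads in every library, CDH5 and CDH11 were no longer tested, which left 7 members. Between 2 and 4 members were called higher and 1 was called lower. CDH24 fell short of the fold change threshold when Control replicate 2, Control replicate 3 or DZNep replicate 2 was left out, and with glmTreat, which tests against that threshold, and CDH10 passed it without DZNep replicate 4. With 1 library left out, the log2 fold change of CDH11 ranged from -0.458 to 0.086, positive without DZNep replicate 2, and that of CDH13 from -0.016 to 0.626, negative without DZNep replicate 1. Over all genes, 2041 were called higher and 2589 lower. These numbers were 1141 higher and 1950 lower with at least 10 reads in every library, 942 and 1066 with glmTreat, and 3656 and 4171 without a fold change threshold. DESeq2 called 2910 and 3008, with 29303 genes given an adjusted p-value. With each library left out in turn, 1936 to 2383 were higher and 2322 to 2993 were lower. The replicate block gave 2243 higher and 2736 lower genes and changed no call among the members. Among the other list genes, the block added CTNNB1, PCDH11X, NECTIN4 (1.22), KDR (1.76) and ELF3 (1.69). Of the other list genes, 31 of 154 tested were higher and 13 lower, beside 10.6% and 13.5% of all genes tested. These 2 counts ranged from 23 to 38 and from 9 to 15. DSG1, DSG3, CTNNA2, ESRP1, TEK, CLDN5 and VWF are among the higher genes and entered the test only through their DZNep libraries. Few counts limit the precision of CDH5 and CDH6.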
